A study of Rattus norvegicus with 6 samples.

Results

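The baseline transcriptome of cultured rat beta cells, which store and secrete insulin in the islets of the pancreas, was read from the 3 libraries of the series that carried a control siRNA, out of 6 libraries in all. They were chosen by their labels alone, which call each a primary beta cell sample in the control condition of batch 1, 2 or 3, and they are called libraries 1, 2 and 3 here. The cells were rat primary beta cells purified by fluorescence-activated sorting. They received 30 nM of AllStars Negative Control siRNA, a duplex without an intended target, with the lipid reagent Lipofectamine RNAiMAX for 16 h, and were cultured for another 48 h before RNA was taken. Poly(A) RNA of integrity number 7.5 or above was sequenced on a HiSeq 2000 after products of 200 bp were cut from a gel. Strain, sex and age of the rats were not given in the sources used here, nor was it stated that the batches came from separate animals, so the spread between libraries may be in part technical. The other 3 libraries carried an siRNA against Nova1, a neuronal splicing regulator, and are not described here. No untransfected cells were analysed here, so resting levels and the response to transfection cannot be told apart.

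Beta cells make insulin as a preproinsulin that is folded in the endoplasmic reticulum, cut by prohormone convertases in secretory granules, and released with amylin when glucose metabolism closes potassium channels and opens calcium channels. Rats carry a pair of insulin genes, Ins1 and Ins2, and the islet also holds glucagon, somatostatin and pancreatic polypeptide cells. Most genes can give several transcripts through other start sites, splice sites or ends. The deposited assembly marks each transcript as known, with all its introns as in a reference transcript, or as new, a splice combination that shares at least 1 junction with one.

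The sequences upstream of the insulin and amylin genes are shown first, because the transcripts of these 3 genes held 46.5% of the summed RPKM (reads scaled by transcript length) and 19.0% of the estimated reads of the libraries, in mean. Each runs from 250 bases before to 50 bases after the annotated start, 5′ to 3′, from RefSeq on the assembly GRCr8. Ins1 is at chr1:261185869-261186168 on the plus strand, Ins2 at chr1:207273756-207274055 on the minus strand, and Iapp at chr4:176967847-176968146 on the plus strand. Capitals mark matches on either strand to GCCATCTG (the E box of insulin genes), TAAT (the core of A boxes) and TATAAA (the TATA box).
Ins1: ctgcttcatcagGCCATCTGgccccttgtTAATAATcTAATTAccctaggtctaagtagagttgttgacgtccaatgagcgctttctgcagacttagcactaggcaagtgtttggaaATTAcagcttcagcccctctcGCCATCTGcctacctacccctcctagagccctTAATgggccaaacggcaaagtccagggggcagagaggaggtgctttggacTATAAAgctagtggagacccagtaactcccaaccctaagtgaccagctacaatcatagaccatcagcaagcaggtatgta
Ins2: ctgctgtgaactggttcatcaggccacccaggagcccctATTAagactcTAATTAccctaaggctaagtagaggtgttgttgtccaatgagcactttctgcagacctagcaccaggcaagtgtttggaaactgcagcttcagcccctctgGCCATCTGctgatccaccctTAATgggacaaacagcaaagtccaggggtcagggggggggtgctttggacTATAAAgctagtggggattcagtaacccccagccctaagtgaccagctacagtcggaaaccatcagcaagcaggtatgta
Iapp: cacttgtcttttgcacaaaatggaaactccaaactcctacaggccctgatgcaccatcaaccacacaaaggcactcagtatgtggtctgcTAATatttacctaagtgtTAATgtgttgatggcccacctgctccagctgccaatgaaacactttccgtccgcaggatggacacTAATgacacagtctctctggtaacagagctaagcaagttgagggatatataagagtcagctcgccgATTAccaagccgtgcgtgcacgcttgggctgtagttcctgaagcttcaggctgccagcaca
The Ins1 window held 2 matches to GCCATCTG, the Ins2 window 1 and the Iapp window 0, against a match in 1.23% of 33465 rat promoter windows of this length. TAAT was found 6 times in Ins1, 4 times in Ins2 and 4 times in Iapp, some of them overlapping because TAATTA and TAATAAT hold the motif more than once, and 60.6% of all windows had it. TATAAA stood 30 bases before the start in both insulin genes, and 14.2% of all windows had a match. This exact string was not found in the Iapp window, which reads tatataag before the start. Variants of the motifs were not searched. In a global alignment Ins1 and Ins2 were identical at 251 of 312 columns, or 80.4%, against 49.1% for Ins1 and Iapp. A match says only that these letters are in the window, and a miss only that the exact letters are not.

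The beta cell label was checked first against its markers. Ins1 was at 299976, 190653 and 312886 RPKM in libraries 1, 2 and 3, where RPKM is the authors' deposited number of reads divided by transcript length and by library size, summed over the transcripts of a gene. Ins2 was at 148153, 94567 and 156788 RPKM in the same order. Both insulin genes were lowest in library 2, and Ins1 stood 2.01 ± 0.0150 times (SD, n = 3) above Ins2, with ratios from 2.00 to 2.02. Because the transcripts of Ins1 and Ins2 are alike, reads of one may have been assigned to the other, and this ratio is uncertain. Iapp, which encodes amylin, was at 8048, 8220.5 and 8310.2 RPKM and hardly differed between libraries (8193 ± 133 RPKM, SD, n = 3). Slc2a2, the glucose transporter GLUT2, was at 879, 706 and 912 RPKM. Pdx1, the homeodomain factor that binds A boxes, was at 117, 108 and 103 RPKM (109.6 ± 7.20, SD, n = 3). All 5 markers were above 100 RPKM in every library, a level that 613 of the 24579 gene models reached in mean.

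Libraries held between 122637234 and 292432076 estimated reads assigned to transcripts, so that 1 read on a transcript of 2000 nt was worth 0.00170 to 0.00392 RPKM. At 1 RPKM or more stood 11565, 12034 and 11496 gene models in libraries 1, 2 and 3, and 11089 (45.1%) in all 3, of which 9980 had a symbol. These 11089 are called present below. A level of 10 RPKM or more in every library was reached by 4684 models. Across the present models, log2 RPKM correlated with Pearson's r of 0.962 between libraries 1 and 2, 0.982 between 1 and 3, and 0.937 between 2 and 3; these points are genes and share the annotation and the library. A library was a batch here, so the spread between libraries and between batches cannot be told apart.

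Few genes held most of the expression. Ins1, Ins2 and Iapp together took 49.5%, 39.9% and 50.2% of the summed RPKM of libraries 1, 2 and 3 (46.5 ± 5.73%, SD, n = 3). Library 2 was the low one, about 10 points under the others. As a share of reads, which gives long transcripts more weight, the same 3 genes held 19.0 ± 4.46%. The 10 most abundant gene models took 55.3 ± 3.84% of RPKM, the first 100 took 68.0 ± 3.06% and the first 1000 took 84.0 ± 2.90%. Of reads, the first 10 held 28.8%.

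**Figure D1:**
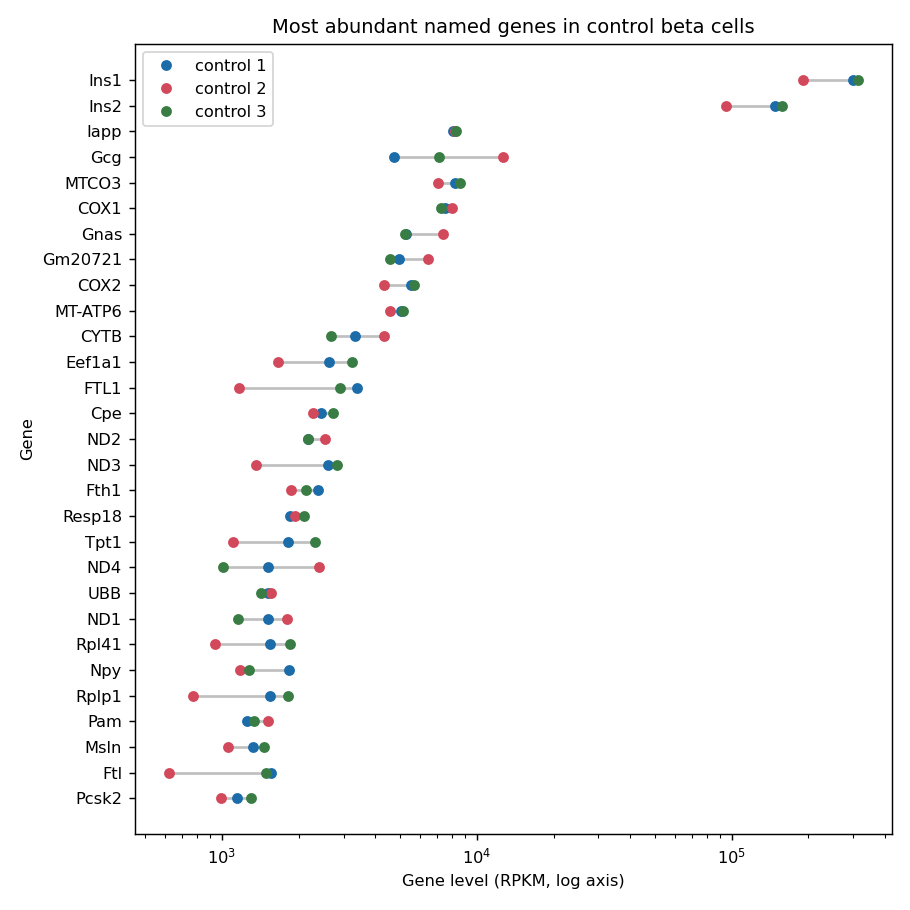
RPKM (log axis) of 29 of the 30 most abundant named genes, one row per gene, with a point for each of the 3 control libraries and a grey line from the lowest to the highest. Ins1 and Ins2 stand at 94567 RPKM or more in every library, Iapp varies little, and library 2 is apart from the other 2 for Gcg, FTL1, ND3 and Ftl.

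The mitochondrial genome gave 13 gene models that summed to 4.71 ± 0.785% of RPKM; they encode subunits of the respiratory chain and the ATP synthase. MTCO3, COX1, COX2 and MT-ATP6 led them with means of 7954, 7563, 5163 and 4920.2 RPKM. Genes of the mitochondrial genome did not vary together: ND3 was at 2609, 1365 and 2838 RPKM, lowest in library 2, whereas ND4 was at 1519, 2406.5 and 1013 RPKM and CYTB at 3333, 4319 and 2684 RPKM, both highest there. Translation and iron storage were also in the first 30, with Eef1a1 (an elongation factor, 2515 ± 803 RPKM), Tpt1, Rpl41, Rplp1, and the ferritin genes FTL1, Fth1 and Ftl. FTL1 was at 3395, 1167 and 2905 RPKM and Ftl at 1563, 621 and 1491 RPKM, both lowest in library 2; as near copies, these ferritin light chain models may share reads.

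Several of the first 30 belonged to the secretory pathway. Gnas, the stimulatory G protein subunit, was at 5261, 7397 and 5242 RPKM from a model of 720 nt, of which 44.9% is overlapped on the opposite strand by the model Gm20721 (4961, 6421 and 4577 RPKM). The strand setting of the counting is not given in the sources used here, so reads of these overlapping models cannot be told apart. Cpe, the carboxypeptidase that trims processed prohormones, was at 2448, 2278 and 2723 RPKM. Resp18, a granule protein, was at 1853, 1938 and 2107 RPKM, and Pam, which amidates peptides, at 1252, 1517 and 1330.5 RPKM. Pcsk2, a proinsulin convertase, was at 1146, 992 and 1297 RPKM. Npy, neuropeptide Y, was at 1838, 1173 and 1274 RPKM, and Msln, mesothelin, at 1322, 1056 and 1460.4 RPKM. Ranked by reads in place of RPKM, 20 of these 30 genes were among the first 30.

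Unnamed models were frequent at the top. Of the 100 most abundant gene models, 16 had no symbol, and models without a symbol took 7.73 ± 0.697% of RPKM in all. Of these 16, 6 lay on chromosome 14 between 46699204 and 46836951 (Rnor_5.0), 2 on the plus and 4 on the minus strand, with means from 2474 to 10527 RPKM. The highest, ENSRNOG00000047693, a model of 384 nt in 1 transcript, was at 10272, 9015 and 12293 RPKM. ENSRNOG00000046600, a model of 411 nt on the plus strand at 46765539 to 46765949, was at 10137, 8709.8 and 12002 RPKM and was overlapped over 93.4% of its length by a model on the minus strand. These 2 stood above Iapp in rank, and the files give no name for either.

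The wider beta cell program was present almost throughout. Of 30 listed genes of beta cell identity, 29 matched a model (Insm1 did not) and 27 were present (93.1%, against 45.1% of all models). The median over the list was 67.7 RPKM against 0.781 RPKM over all 24579 models. Slc30a8, the zinc transporter of the granule, was at 562, 425 and 595 RPKM. Ucn3, urocortin 3, a mark of mature beta cells, was at 601, 381 and 525 RPKM. Mafa, a factor of mature beta cells that binds the insulin promoter, was at 138, 204 and 444 RPKM, and so differed more than 3-fold between libraries 1 and 3. Neurod1, the factor that binds E boxes with a partner, was at 116, 108 and 102 RPKM. Nkx6-1 was at 91.7, 85.2 and 72.5 RPKM, Nkx2-2 at 70.3, 79.6 and 53.1 RPKM, and Isl1 at 46.2, 68.2 and 46.9 RPKM; all 3 are islet homeodomain factors. Glp1r, the receptor for the incretin GLP-1, was at 152, 107 and 135 RPKM. Gipr, the receptor for the incretin GIP, was at 5.76, 50.5 and 5.71 RPKM, with 1 library far above the rest. Under 1 RPKM were Dlk1 and G6pc2, the latter at 0.0149 RPKM in library 1 and listed at 0 in the other two.

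**Figure D2:**
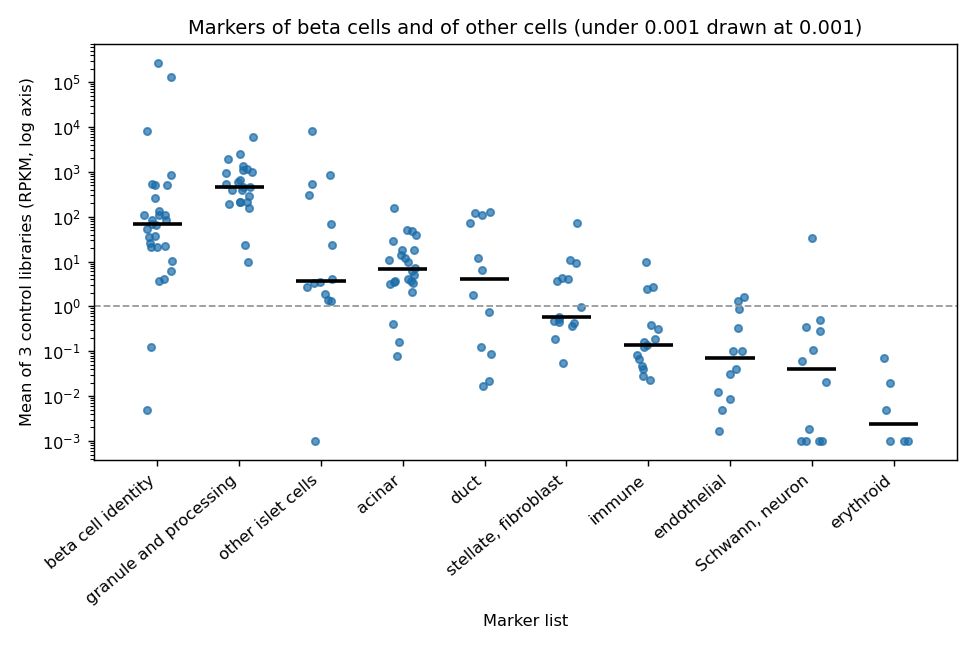
Mean RPKM over the 3 control libraries (log axis) of each matched gene in lists of markers for beta cells, the secretory granule and other cell types; each point is a gene, the black bar is the list's median and the dashed line is 1 RPKM. Granule genes lie at a median of 463 RPKM. The medians of the stellate or fibroblast, immune, endothelial, Schwann or neuron, and erythroid lists are under 1 RPKM.

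Every one of 23 granule and processing genes was present, at a median of 463 RPKM. Besides Gnas, Cpe, Resp18, Pam and Pcsk2 they were led by Scg2, a granin, at 1009, 1105 and 1194 RPKM. Pcsk1, the other proinsulin convertase, was at 377, 443 and 362 RPKM. Chgb, chromogranin B, was at 130, 260 and 84.8 RPKM and Scg3, secretogranin 3, at 405, 694 and 284 RPKM, both highest in library 2 and lowest in library 3. All 34 genes of protein folding in the endoplasmic reticulum were also present, at a median of 138 RPKM. Hspa5, the chaperone BiP, was at 762, 1117 and 756 RPKM, and P4hb, Pdia3 and Pdia6, which form disulfide bonds, had means of 504, 443 and 379 RPKM. Hsp90b1, the chaperone GRP94, was at 291, 578 and 255 RPKM, and of the 34 folding genes 18 were highest and 11 lowest in library 2, where 48.6% of all present models were highest and 36.2% lowest.

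The shares of present genes were 85.7% for glucose sensing, 75.8% for channels and pumps and 86.2% for exocytosis, against 45.1% of all gene models. For glucose sensing, 30 of 35 listed genes were present, led after Gapdh and Slc2a2 by Mdh1, a malate dehydrogenase (763 RPKM in mean), Pkm, Aldoa and Pgam1. Hk1 and Hk2, hexokinases of many other tissues, were at means of 0.126 and 0.0878 RPKM, and both were named after their values were seen. Of 33 channel and pump genes 25 were present, with the calcium pump Atp2a3 at 699, 438 and 504 RPKM in the lead. The subunits of the ATP-sensitive potassium channel, Abcc8 (61.3, 73.2 and 52.8 RPKM) and Kcnj11 (56.5, 62.5 and 51.9 RPKM), had like levels. Of 29 exocytosis genes 25 were present, led by Syt13, a synaptotagmin (271, 291 and 288 RPKM), Sytl4, which binds granules (194, 261 and 174 RPKM), and Vamp8.

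Transcripts of other islet hormones were also measured. Gcg, glucagon, was at 4728, 12641 and 7084 RPKM, among the 10 most abundant gene models, and equalled 1.06%, 4.43% and 1.51% of the summed RPKM of the insulin genes. Ppy, pancreatic polypeptide, was at 566, 1507 and 431 RPKM, and Sst, somatostatin, at 231, 318 and 369 RPKM. Glucagon and pancreatic polypeptide were highest in library 2, where insulin was lowest, and Ghrl, ghrelin, was listed at 0 in all 3. The whole list of 14 genes of alpha, delta, polypeptide and epsilon cells had 13 present (92.9%, against 45.1% of all gene models). It summed to 6194, 15043 and 8541 RPKM. In bulk samples fewer cells of a type and less RNA per cell cannot be told apart, and the part of this list in the lower insulin share of library 2 was not tested.

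Genes of acinar cells, which make digestive enzymes, and of other cell types were also measured. The share present was 66.7% of matched acinar, 58.3% of duct and 40% of stellate or fibroblast genes, against 45.1% of all gene models. It was 20% for immune genes, 8.33% each for endothelial and Schwann or neuron genes, and 0% for erythroid genes. Of 24 matched acinar genes 16 were present and none reached 100 RPKM in every library; the list summed to 649, 462 and 244 RPKM, highest in library 1 and lowest in library 3. Ctrb1, chymotrypsinogen, was at 217, 165 and 93.7 RPKM, and Prss1, trypsinogen, at 86.3, 56.0 and 13.1 RPKM. In the duct list 7 of 12 were present: Epcam, Krt7, Krt8 and Krt18, which epithelial cells share, had means of 130.4, 122, 111 and 72.9 RPKM, whereas Sox9 and Cftr, named after their values were seen, had means of 0.0172 and 0.0216 RPKM. Of 15 matched stellate or fibroblast genes 6 were present, with sums of 85.8, 136 and 98.7 RPKM mostly from Fn1, fibronectin. Immune genes were present for 3 of 15, led by C1qa at 10.6, 9.65 and 9.67 RPKM, with list sums from 14.8 to 17.9 RPKM. Endothelial markers were present for 1 of 12 (Plvap, sums from 4.17 to 4.94 RPKM), Schwann cell or neuron markers for 1 of 12 (Tubb3, 34.0 RPKM in mean, with Cdh19, Foxd3 and Gfap among those listed at 0), and erythroid markers for 0 of 6, of which the globin genes Hba-a2, Hba2 and Hbb-b1 were listed at 0 in every library and Hbb was at 0.0438, 0 and 0.0155 RPKM. The part of these cells in any level of a gene they share with beta cells was not tested.

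Levels were close between libraries for most genes. The median coefficient of variation over the present models was 16.4%, and 9478 models (85.5%) lay within 2-fold over all 3 libraries. Without library 2 that median was 8.19%. Among genes with a mean of 100 RPKM or more, the least variable was Tmem27, collectrin, at 515, 518 and 509.8 RPKM. Next were Hm13, the signal peptide peptidase (115, 117 and 118 RPKM), Nckap1, an actin regulator (106, 106 and 103 RPKM), and Iapp. Rbbp7, Itgb1, Calr, Rab2a, Tmem30a and Eif4g2 completed the 10 lowest, with coefficients from 1.77% to 2.13%.

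Library 2 held the highest value for 48.6% of present models, against 21.9% for library 1 and 29.5% for library 3. The lowest value lay in library 3 for 44.1%, in library 2 for 36.2% and in library 1 for 19.6%. Col27a1, a fibrillar collagen, was at 1.11, 39.9 and 0.813 RPKM, and Snhg11, a noncoding host gene of small nucleolar RNAs, at 5.74, 145 and 4.07 RPKM. The others of the 10 highest ratios to libraries 1 and 3 were Gipr, Map3k15, Npepl1, Trafd1, Ccnl2, Irf3, Clk1 and Acin1. Clk1, a kinase of splicing factors, was at 8.70, 39.1 and 6.61 RPKM, and Acin1, a protein of splicing complexes, at 9.35, 30.9 and 3.46 RPKM. At the low end RT1-CE15, a class I histocompatibility gene, was at 43.1, 0.121 and 32.0 RPKM, and Rnf5, a ubiquitin ligase, at 41.0, 4.32 and 43.7 RPKM. Lgals3, galectin-3, was at 674, 124 and 977 RPKM, and Fabp5, a fatty acid binding protein, at 40.4, 6.88 and 40.4 RPKM. Some differences came from library 3 alone: Camkk1, a calcium-dependent kinase, was at 2.62, 2.68 and 62.2 RPKM, and Prrg2 at 18.9, 14.2 and 0.0977 RPKM. Other models on the same strand overlap 58.7% of the exon bases of Prrg2 and 15.2% of those of RT1-CE15. Reads of these genes may therefore have been assigned to other models.

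Most models named for ribosomal proteins, the subunits of the ribosome, were lowest in library 2. The 134 present ones took 4.67%, 3.47% and 5.52% of RPKM, and 123 of them were lowest in library 2 while 4 were highest there. Some symbols occur in several models with nearly equal values: RPL8 models were at 450.64 and 450.62 RPKM in library 1. Near copies may share reads, so these counts are of models and not of separate genes. Their median ratio of library 2 to the mean of libraries 1 and 3 was 0.565, against 1.05 over all present models; scaling each library to the same summed RPKM raised these to 0.722 and 1.34, a shift of the median over all present models by 0.35 on the log2 scale. On that scale Ins1 was still lower in library 2, at a ratio of 0.794. Iapp went from 1.01 to 1.28 and Pdx1 from 0.980 to 1.25. Scaling by a trimmed mean of log ratios between libraries (trimmed mean of M values) lowered the ratios instead. It gave medians of 0.493 for ribosomal and 0.920 for all present models, and 0.544 for Ins1, 0.879 for Iapp and 0.859 for Pdx1. Of 30 present splicing regulators 23 were highest in library 2 and 4 were lowest there. Over all present models 48.6% were highest and 36.2% lowest in library 2. Srsf5, an SR protein, was at 30.3, 110.2 and 30.0 RPKM, and Hnrnpa2b1 at 128, 172 and 112 RPKM, while Hnrnpk was at 178, 172 and 161 RPKM. Ptbp3, a repressor of exons, was lowest in library 2 at 39.4 RPKM against 55.6 and 50.9. Nova1, the gene targeted in the other libraries of the series, was at 5.06, 2.83 and 2.03 RPKM.

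The length of a gene's main transcript moved with the same ratios. For 586 models with a main transcript under 500 nt, the median log2 ratio of library 2 to the mean of the other 2 was -0.32, and for 491 models with one of 8000 nt or longer it was 0.54. Library 3 ran the opposite way, from 0.35 to -0.57, and library 1 stayed between -0.09 and 0.03 in every length class. Spearman's rho between length and ratio over the 11089 models was -0.0757, 0.435 and -0.501 for libraries 1, 2 and 3. The Ins1 and Ins2 models, at 445 and 446 nt, belong to the shortest class, whose median ratio was 0.800 in library 2 against 0.622 for Ins1. The part of length in the differences between libraries was not tested.

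**Figure D3:**
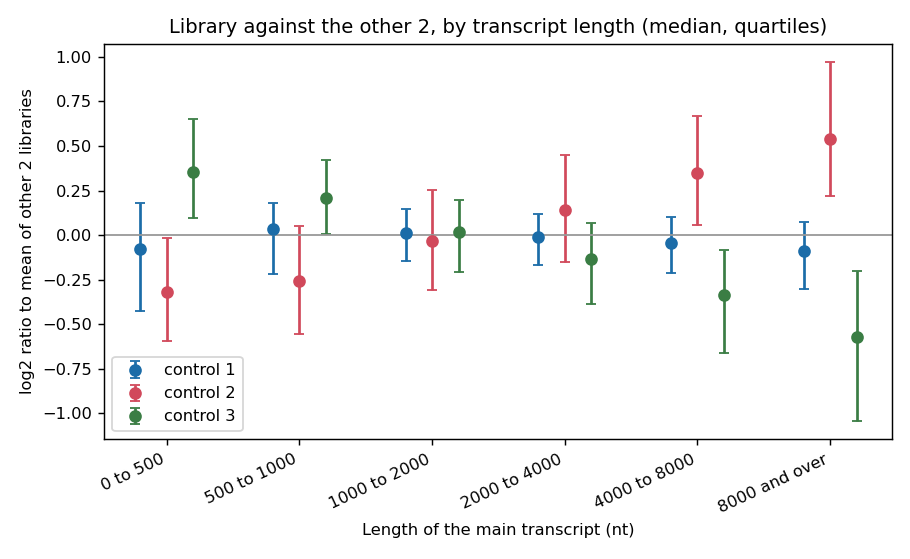
Median log2 ratio of each control library to the mean of the other 2, for present genes in 6 classes of main transcript length in nt; bars run from the lower to the upper quartile of genes. Library 2 rises from -0.32 to 0.54 and library 3 falls from 0.35 to -0.57 from the shortest to the longest class.

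The assembly offered many more transcripts than were used. It holds 60887 transcripts, 30016 known and 30871 new, and the present models have 38203 of them. A single transcript was assembled for 3030 present models, and 8059 had 2 or more, with a median of 3. A transcript is called used where it held 10% or more of the gene's RPKM in every library. By that rule 6222 present models (56.1%) used 1 transcript, 3575 (32.2%) used 2, 756 (6.82%) used 3 and 58 used 4 or more, while 478 had no transcript that passed in every library. At least 2 were used by 4389 models, or 39.6%. Asking for 10% only in the mean of the libraries raised this to 63.3%, and asking for 20% in every library lowered it to 20.8%. Of known transcripts of present models 62.1% were used, and of new ones 29.1%. The transcripts of the 3030 models with a single one were all known and hold the whole gene by construction. They count as used in the known share, so these shares do not compare like with like.

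**Figure D4:**
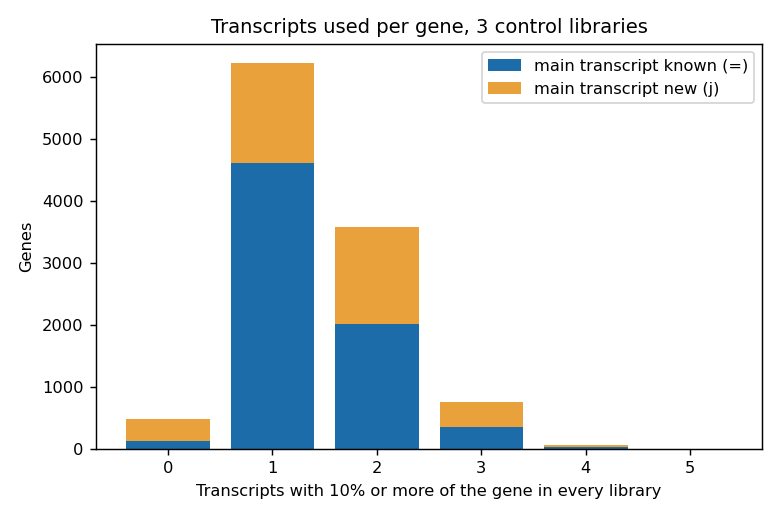
Number of present gene models (bar height) by how many transcripts held 10% or more of the gene's RPKM in every control library, split by whether the transcript with the highest mean share is known or new. The bar at 1 holds 6222 models, of which 1604 have a new main transcript.

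The genes with most used transcripts were Vstm2l, Gnao1 and Smarcc2, with 5 each. Vstm2l, a secreted immunoglobulin-domain protein, split its 103 RPKM into shares of 28.5%, 27.0%, 18.8%, 13.4% and 12.2%, and the leading transcript was new in library 1 and known in libraries 2 and 3. Gnao1, an inhibitory G protein subunit, had a leading share of only 20.5%. The most abundant genes with 4 used transcripts were Ndufa4, Sel1l, Lman1, Mest, Pax6, Net1 and Picalm. Sel1l, a partner of the ubiquitin ligase for misfolded proteins, kept the same known transcript at 45.0%, 43.0% and 41.9% of the gene. Pax6, an islet and eye homeodomain factor, divided into a known transcript of 13 exons (41.3%, 40.5% and 32.3%), a new one of 12 exons (28.7%, 26.5% and 36.9%), a known one of 12 exons (19.5 ± 0.576%) and a new one of 13 exons (11.8 ± 1.21%). So the order of the first pair changed in library 3.

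For 3954 present models (35.7%) the main transcript, the one with the highest mean share, was new. Each of these models also had a known transcript, whose median share was 15.8%. Only 1351 models, or 12.2%, had a new main transcript that held 50% or more of the gene in every library. Compared with the known transcript of highest share, the new one differed in the first intron in 2126 models, in the last intron in 594, in both in 670 and in internal introns only in 564. It was longer in 69.0% of models, by a median over the 3954 of 283 nt. New transcripts held 9.68%, 12.6% and 9.24% of RPKM in libraries 1, 2 and 3, highest in library 2.

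At the top of these stood Eef1a1, whose new transcript, 251 nt longer than the known one and different in the first intron, held 70.5%, 69.7% and 70.4%. Chga, chromogranin A, gave 93.4%, 88.0% and 89.3% to a new transcript of 13 exons and 1928 nt, which differs from the known one in internal introns; the known one held 0.330%. Of the other genes in the highest 10, Rps16, Rps23, Rpl23, Rpl31 and Rps15a encode ribosomal proteins. Rpl31 gave 99.0 ± 0.213% to its new transcript. Rps16 gave 85.0 ± 0.503% to one of 237 nt, 582 nt shorter than the known one. Lgals3 gave 81.8%, 82.7% and 82.2% to its new transcript, although the gene's level differed 7.90-fold between libraries 2 and 3. Serp1, which stabilises membrane proteins under stress, gave 72.9%, 78.8% and 66.3%.

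The main transcript was the same in all 3 libraries for 7778 present models (70.1%), and for 58.9% of those with 2 or more transcripts. Among the latter it was the same in 70.0% where it was known and in 47.4% where it was new. Pairs of libraries gave 69.2% (1 and 2), 73.4% (1 and 3) and 69.4% (2 and 3). The median share of the main transcript was 60.0%, with a median SD over libraries of 9.0 percentage points. Among genes with 2 or more transcripts these values moved with the gene's level: the same main transcript was found in 46.9% of those of 1 to 3 RPKM and in 80.0% of those of 100 RPKM or more. New main transcripts went from 55.0% to 31.0% over these levels. They also moved with the number of assembled transcripts, from 79.3% with the same main transcript where there were 2 to 29.6% where there were 10 or more.

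**Figure D5:**
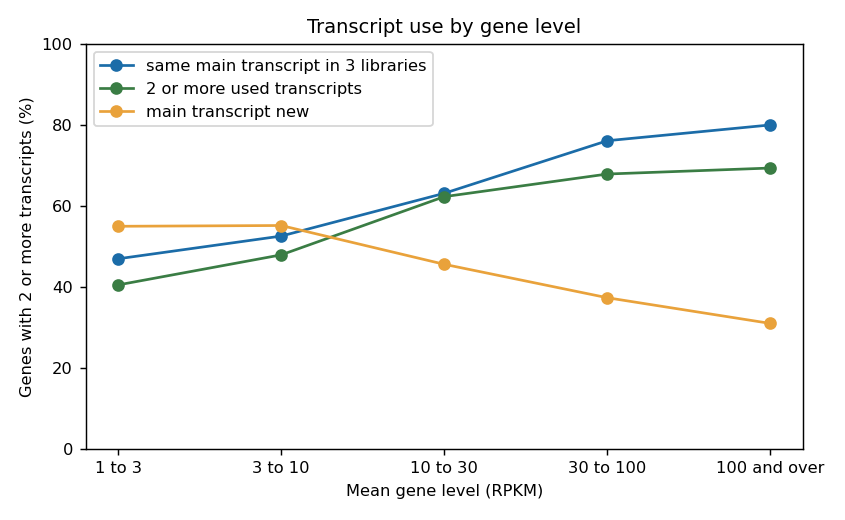
Percent of present genes with 2 or more transcripts, by class of mean RPKM, that kept the same main transcript in all 3 control libraries, that used 2 or more transcripts, and whose main transcript was new. From the lowest to the highest class the first rises from 46.9% to 80.0%, the second from 40.5% to 69.4%, and the third is lower at the end (31.0%) than at the start (55.0%).

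Some abundant genes had a main transcript that differed between libraries. Cpe was nearly even, with its known transcript of 1994 nt at 54.1%, 49.7% and 52.6% and a new one of 1726 nt holding the rest. Rpsa, a ribosomal protein, was likewise close to even at 61.0%, 49.2% and 54.5%. In others the estimate switched: RPS4X, also ribosomal, gave its known transcript 57.0%, 96.1% and 0%, and Pdia3 gave a new transcript 4.35%, 4.85% and 88.5% while its known one went from 53.7% and 38.6% to a listed 0. Reads of transcripts that share most of their sequence are divided by estimation, and a value of 0 there can be a failed estimate. Rps24 gave one known transcript 34.9%, 33.0% and 91.5%. Msln, Igfbp7, Ppp1r1a, Pcsk1n and Psap completed the 10 most abundant such genes. Pcsk1n, an inhibitor of Pcsk1, had 11 transcripts and a leading mean share of 26.3%. Known transcripts of 3 exons lay at either end of its model, at 16104506 to 16107925 and 16206448 to 16209841 on chromosome X. Whether these are separate copies joined in the same model was not tested.

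Among the 27 present beta cell identity genes, 12 used 2 or more transcripts, 10 had a new main transcript and 22 kept the same one in all 3 libraries; the shares over all present models were 39.6%, 35.7% and 70.1%. Ins1, Ins2, Slc2a2, Tmem27, Ucn3, Mafa and Ffar1 were among those with 1 assembled transcript. Iapp gave 95.7%, 78.9% and 98.8% to its known transcript, lowest in library 2. Pdx1 gave 61.4%, 54.6% and 62.2% to its known transcript and used 3 of 4. Neurod1 gave 76.8%, 74.4% and 83.2% to a new transcript, and Foxa2, a forkhead factor, 63.1%, 55.9% and 66.7%. Isl1 used 4 transcripts, with a new one leading at 32.5%, 39.6% and 42.0%. Hnf4a, a nuclear receptor, used 3, led by a new one at 43.5%, 43.4% and 49.7%. Gipr gave 87.4%, 93.9% and 81.6% to a new transcript, so the high level in library 2 was of the same transcript. Those with a main transcript that differed between libraries were Ero1lb, Nkx6-1, Pax6, Prlr and Rfx6.

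Of the 23 granule and processing genes, 12 used 2 or more transcripts, 4 had a new main transcript (Pcsk1n, Chga, Sytl4 and Chgb) and 18 kept the same one. The shares over all present models were again 39.6%, 35.7% and 70.1%. Scgn, secretagogin, a calcium sensor, was among the steadiest with 57.2%, 56.9% and 57.2% in its known transcript. Pcsk1 gave 79.3%, 79.8% and 80.8% to its known transcript and Scg2 86.4%, 87.1% and 85.7%. Cd63, a granule and lysosome membrane protein, gave 74.9%, 55.6% and 53.9%, and Ptprn2, a granule phosphatase-like protein, 63.5%, 71.6% and 89.6%, so that their shares spread widely over the libraries. Chgb gave 62.3%, 53.0% and 45.5% to its leading new transcript. Channel genes used several transcripts most often among the lists with 20 or more present genes, in 17 of 25, followed by exocytosis genes in 14 of 25. Of 30 present splicing regulators 13 used several and 14 had a new main transcript. Glucose metabolism genes had a new main transcript in 3 of 30.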

How the data were processed

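Poly(A) RNA was sequenced in 3 control libraries, grouped by their titles. TopHat and the assembly Rnor_5.0 are named in the submitters' processing notes. The authors deposited, for each of 60887 assembled transcripts, a length, an estimated count of reads and an RPKM value as text attributes, per the file contents. How reads were divided among transcripts, and with which strand setting, is not given in the sources used here. Of the read values above 0, 18.2% to 18.6% were whole (tolerance 0). Whether a transcript is known or new is the assembly's class code, = or j, in the deposited file.

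A gene model joins a locus with a gene name (24579 in all), and its RPKM and estimated reads are the sums of its transcripts. The file named 18880 models; 517 more took a symbol from RefSeq (GRCr8, names only), and 5182 stayed unnamed. Genes of the mitochondrial genome were taken by chromosome. Present means 1 RPKM or more in every library, used means 10% or more of the gene in every library. The 22 gene lists hold 456 entries, of which 450 matched.

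No test was made: a single condition was described, by mean, SD (n = 3) and range. Genes are named by these rules: the 5 markers; the 30 most abundant; up to 6 highest members of each list and members at 0; the 10 most and least variable; the 10 highest and lowest in library 2; the 10 with most used transcripts, with the highest new main transcript of 50% or more, and with a main transcript that differed; and members of the beta cell identity and granule lists. Some genes these rules name are not reported here. Genes named outside these rules are marked, apart from Abcc8, Kcnj11 and Nova1, named for their known roles. The libraries, lists and rules were chosen with earlier results of these data known. Alternatives were other levels, thresholds, scalings and leaving out a library. The analysis ran in Python 3.11.15 with pandas 2.3.3, numpy 2.4.6 and matplotlib 3.10.9, and the usage calculation was tested on simulated data. Intervals are not given, because estimated reads are not independent molecules.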

Additional observations from a re-analysis of the deposited data

How the results depend on the processing

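No paired analysis was possible because 1 condition was described and no groups were compared. Of 52 alternatives, 28 left a value within 1 SD, or a count within 1.5-fold, and 24 did not. The SD was over single libraries for most values. For the same main transcript and the coefficient of variation it was over the values with 1 library left out, so there it is not a spread between libraries. The count of present models was 4684 at 10 RPKM. The insulin and amylin share was 19.0% of reads, and that of the 10 first models 28.8%. Genes with several used transcripts were 45.2% at 10 RPKM or more, 29.1% with no gene filter, 54.5% of genes with several assembled transcripts, 51.5% at a threshold of 5%, 20.8% at 20% and 63.3% at 10% in the mean; leaving out a library gave 45.9% to 48.1%, since fewer libraries have to pass. New main transcripts were 27.7% at 10 RPKM or more, 32.4% with no filter, 38.6% by reads, 49.1% of genes with several transcripts and 12.2% at 50% in every library. The same main transcript was found in 79.7% at 10 RPKM or more, in 58.9% of genes with several transcripts, and in 77.5% to 80.7% without 1 library. The median coefficient of variation was 22.2% when libraries were scaled to the same summed RPKM, and from 8.19% (without library 2) to 18.9% (without library 1) when a library was left out. Of the 30 most abundant genes, 28 to 30 were shared when 1 library was left out. Where the construction does not give it, the cause was not tested. Of the 5 classes of gene level, genes of 1 to 3 RPKM kept the same main transcript least often, in 62.3%, or in 46.9% of those with 2 or more transcripts.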

Other observations

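Of 20 listed genes known from neurons 15 were present, against 45.1% of all gene models, led by Uchl1, a ubiquitin hydrolase, at 204, 164 and 219.8 RPKM. Gad2 and Gad1, the enzymes that make GABA, were at 187, 175 and 174 RPKM and at 83.5, 123 and 71.3 RPKM, and Syp, synaptophysin, at 132, 132 and 121 RPKM. Of 18 genes known to be kept low in beta cells 9 were present, a share near that of all models, and the list's median was 1.06 RPKM against 0.781 RPKM over all models. Cat, catalase, led it at 50.4, 47.1 and 37.9 RPKM. Ldha, lactate dehydrogenase A, was at 2.24, 2.15 and 6.44 RPKM, highest in library 3.

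Of 15 cell cycle genes 6 were present, a share near that of all models. Ccnd2, cyclin D2, was at 197, 200.2 and 168 RPKM and Cdk4, its kinase partner, at 93.2, 60.7 and 96.9 RPKM. Mki67, a marker of dividing cells, was at 0.149, 1.35 and 0.0725 RPKM (named after its values were seen). Among 15 interferon-responsive genes 7 were present, again near the share of all models, among them Cxcl10, a chemokine, at 33.4, 27.4 and 26.5 RPKM. Mx1 and Ifit1, also named after their values were seen, had means of 0.0171 and 0.0304 RPKM, and Mx1 was the lowest of the 15. Only 5 of the 15 had a mean under 1 RPKM, and the list's median was 1.43 RPKM. A response to transfection was not tested. Hmox1, heme oxygenase 1, led the early stress genes at 152, 95.2 and 141 RPKM.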
